A study of Homo sapiens with 2 samples.

Results

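The genes described here are 10 death receptor pathway genes: the FAS receptor gene, the 4 TRAIL receptor genes TNFRSF10A, TNFRSF10B, TNFRSF10C and TNFRSF10D, the TNF receptor genes TNFRSF1A and TNFRSF1B, the related receptor gene TNFRSF21, and FADD and CASP8, which encode the adaptor of the FAS and TRAIL death receptors and the caspase it brings in. They were chosen by name and not by their values, but with earlier results of these data known. They are 10 of 20163 protein-coding genes. Peaks lying in a gene body or reaching to 3 kb or less from the start of transcription (TSS) were assigned to the gene, which gave 40 of 114060 peaks in the DMSO library and 56 of 161184 in the MAK683 library. Positions are on GRCh37 (hg19).

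The assay was ATAC-seq, which reads open DNA from the places where a transposase, Tn5, inserts adapters. Both libraries were made from G401, an established SMARCB1-deficient malignant rhabdoid tumor line of kidney origin that the study calls sensitive to MAK683. One culture was given the solvent DMSO and the other 3 μM MAK683, which binds EED and thereby inhibits Polycomb repressive complex 2 (PRC2), each for 3 days. Each group had 1 library, so every difference below is between these libraries. It has no replicate check and no p-value, and the treatment, the culture and the library cannot be told apart.

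Death receptors are membrane proteins with a cytoplasmic death domain. FAS ligand or TRAIL clusters its receptors, the adaptor FADD joins them through its own death domain, and CASP8 is brought in and activated, which starts the cleavage of effector caspases. TNF receptor 1 works through a different adaptor and mainly drives NF-kB signaling, while the decoy TRAIL receptors bind the ligand without passing on a death signal. PRC2 places the repressive mark H3K27me3. Silencing of FAS, CASP8 and TRAIL receptor genes by DNA methylation, a different mark, has long been studied in tumors. These libraries measured neither mark.

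Promoter sequences are shown for FAS, the member with the largest gain in promoter height, and for TNFRSF1A, the member with the lowest log2 change. The TNFRSF1A change was -1.87, or 0.16 with the peak nearest the TSS, and both values compare different peaks. Chosen after their values were seen, FADD, which is lower after MAK683, and TNFSF10, the TRAIL gene, are shown as well. The TNFSF10 promoter had a peak in MAK683 alone. Each run is the 200 bases before the first annotated base of the gene in GRCh37, read 5′ to 3′ on the coding strand, with CpG dinucleotides in capitals. The FAS run lies at chr10:90750214-90750413 on the plus strand, within an exon of the noncoding gene ENSG00000286116, the TNFRSF1A run at chr12:6451281-6451480 on the minus strand, the FADD run at chr11:70049202-70049401 on the plus strand and the TNFSF10 run at chr3:172241266-172241465 on the minus strand.
FAS: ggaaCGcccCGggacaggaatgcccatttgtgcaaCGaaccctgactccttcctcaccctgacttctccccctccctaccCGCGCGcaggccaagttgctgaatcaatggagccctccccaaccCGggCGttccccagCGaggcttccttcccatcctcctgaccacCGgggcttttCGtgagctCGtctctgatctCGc
TNFRSF1A: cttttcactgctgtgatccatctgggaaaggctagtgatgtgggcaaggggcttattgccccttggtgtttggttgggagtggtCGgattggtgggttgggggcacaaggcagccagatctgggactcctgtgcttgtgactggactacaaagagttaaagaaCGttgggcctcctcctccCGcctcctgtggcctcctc
FADD: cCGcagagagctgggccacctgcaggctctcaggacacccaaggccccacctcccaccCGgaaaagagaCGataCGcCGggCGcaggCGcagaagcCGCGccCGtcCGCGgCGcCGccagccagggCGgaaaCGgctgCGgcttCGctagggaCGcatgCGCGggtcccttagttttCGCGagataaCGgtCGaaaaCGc
TNFSF10: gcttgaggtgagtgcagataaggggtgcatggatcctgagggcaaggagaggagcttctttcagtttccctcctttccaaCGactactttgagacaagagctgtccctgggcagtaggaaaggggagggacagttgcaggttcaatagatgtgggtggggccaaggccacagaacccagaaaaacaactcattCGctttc
The FADD run held 26 CpGs and had a GC content of 69%. The FAS run held 13 CpGs at 63% GC, the TNFRSF1A run 3 CpGs at 56.5% GC, and the TNFSF10 run 2 CpGs at 52.5% GC. Over the 200 bases before the TSS of all protein-coding genes the medians were 15 CpGs and 64.5% GC, so the promoters of FADD on one side and of TNFRSF1A and TNFSF10 on the other stood at different ends of CpG content, with FAS near the middle. Of the motifs searched on both strands, the SP1 motif GGGCGG was found in the FADD run alone of these 4, starting 77 bases upstream, and 56.0% of all such promoter windows hold it. The AP-1 motifs TGAGTCA and TGACTCA and the NF-kB motif GGANTTTCC were found in none of the 4 runs. Either AP-1 motif is in 2.49% of all windows and the NF-kB motif in 1.12%. Among the 10 members, an AP-1 motif was found only in the 200 bases before the CASP8 TSS. These matches are descriptions of the letters and not of binding.

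A height is the number of tags over the summit of a peak divided by the tags of its library after filtering, in tags per 1000000 (RPM). The libraries held 16598348 tags (DMSO) and 18265284 tags (MAK683), so that 1 tag was worth 0.0602 and 0.0547 RPM. The lowest listed peak held 6 tags in each library, 0.361 RPM in DMSO and 0.328 RPM in MAK683. For a missing peak the height was taken as 0.361 RPM, called the floor here. The brackets after heights are 95% exact Clopper-Pearson intervals and those after log2 changes (MAK683 over DMSO) are 95% Poisson intervals. All cover counting error only, because each group had 1 library. They take tags as independent, but both reads of a pair may have been counted as separate tags, so the intervals may be too narrow. Copies made by PCR cannot be told from separate molecules, and 1 tag per position was kept. In bulk cells, a site open in fewer cells and a site less open in every cell cannot be told apart. The line could be checked against markers: SMARCB1 had no peak in its promoter or body in either library, the promoter of VIM, a mesenchymal gene, had 44 and 41 tags in DMSO and MAK683, the epithelial genes EPCAM and CDH1 had 12 and 11 and 18 and 17 tags, and the leukocyte gene PTPRC had no promoter peak, with 1 peak in its body in DMSO and 6 in MAK683.

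Promoter peaks were found at 8 of the 10 members, 7 of them in both libraries and 1, TNFRSF1B, in MAK683 alone. The promoter height was higher after MAK683 at 2 members, FAS and TNFRSF1B, and lower at 6, while 21.5% of 16247 protein-coding promoters with a peak were higher. All promoters together were lower after MAK683 by these heights. From a composite profile, the paper reports no significant change of chromatin opening around TSSs in G401. The median height was 1.93 RPM in DMSO and 1.31 RPM in MAK683. Peaks were listed at 14660 promoters in DMSO and 15875 in MAK683, which are not the same sets. The median log2 change over the 16247 promoters was -0.42. The median over the 8 members was -0.37. Relative to the median of all promoters it was 0.05, so its sign turned, and 4 members, FAS, TNFRSF1B, TNFRSF10D and TNFRSF21, then lay above 0. No member was at least 2-fold higher, against 3.37% of all promoters, and 1, TNFRSF1A, was at least 2-fold lower, against 5.75%. That ratio compares different peaks, and over the merged region the TNFRSF1A change was -0.70, less than 2-fold. A share of 1 in 8 with a peak in MAK683 alone compares with 9.77% of all promoters, and 2 of 10 members without a promoter peak compare with 19.4% of protein-coding genes. Each of these counts was within 1 gene of the share over all promoters or genes, so the list as a whole did not stand apart and the differences lay between single members.

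**Figure D1:**
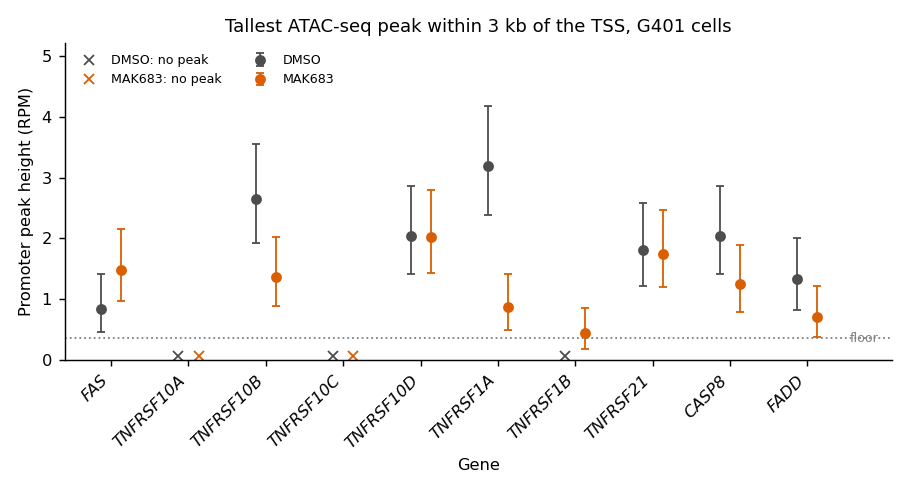
Height in RPM of the tallest peak within 3 kb of the TSS for each of the 10 members in the DMSO (grey) and MAK683 (orange) libraries, with 95% exact intervals that cover counting error; crosses mark no peak and the dotted line the floor, 0.361 RPM. FAS is higher in MAK683 (1.48 against 0.843 RPM), TNFRSF10B, CASP8 and FADD are lower, and the TNFRSF1A points come from different peaks.

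FAS (ENSG00000026103, chr10:90750414-90775542, plus strand) encodes the receptor of FAS ligand. Its promoter had 14 tags in DMSO, a height of 0.843 RPM (0.461 to 1.42), and 27 tags in MAK683, a height of 1.48 RPM (0.974 to 2.15). The log2 change was 0.81 (-0.12 to 1.74), a height 1.75-fold higher in MAK683, and the interval includes 0. It lies above the median change of all promoters, -0.42, at the member with the largest gain. The promoter thus was among the lower ones in DMSO, above 12.4% of the promoters listed there, and near the middle in MAK683, above 59.3%. Its log2 change exceeded that of 94.4% of all promoters. The DMSO peak ran from 90750159 to 90751869 with its summit 38 bp downstream of the TSS, and the MAK683 peak from 90749288 to 90751688 with its summit 172 bp downstream, both in the 5′ UTR. This stretch also lies within the annotated extent of ACTA2 and of ENSG00000286116. FAS was higher in MAK683 under 12 of 12 other settings, with log2 changes from 0.71 to 1.23. These settings mostly reused the same 14 and 27 tags, so they are not independent checks.

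The 4 TRAIL receptor genes lie next to each other on chromosome 8 and differed in their promoters. TNFRSF10B (ENSG00000120889, chr8:22877646-22926544, minus strand) encodes the death receptor DR5. Its promoter peak had 44 tags in DMSO, a height of 2.65 RPM (1.93 to 3.56), and 25 tags in MAK683, a height of 1.37 RPM (0.886 to 2.02). The log2 change was -0.95 (-1.66 to -0.25), an interval below 0 that covers counting error only. This interval includes the median change of all promoters, -0.42. The TNFRSF10B change exceeded that of 7.13% of all promoters. The summits lay 97 and 88 bp upstream of the TSS. The height passed that of 79.4% of listed promoters in DMSO and of 52.7% in MAK683. It was lower in MAK683 under 12 of 12 other settings, which mostly reused the same tags and are not independent checks.

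TNFRSF10D (ENSG00000173530, chr8:22993101-23021540, minus strand) encodes a decoy receptor with a truncated death domain. Its promoter had 34 tags in DMSO, a height of 2.05 RPM (1.42 to 2.86), and 37 tags in MAK683, a height of 2.03 RPM (1.43 to 2.79). The log2 change of -0.02 (-0.69 to 0.66) gave no difference detectable at this depth, and its sign turned under 3 of 12 other settings. Against the lower heights of promoters in general, it stood above 54.9% of listed promoters in DMSO and 86.3% in MAK683. TNFRSF10A (ENSG00000104689, chr8:23047965-23082615, minus strand), the gene of the death receptor DR4, and TNFRSF10C (ENSG00000173535, chr8:22960434-22974958, plus strand), the gene of a decoy receptor held in the membrane by a lipid anchor, had no promoter peak in either library. A peak below the listed minimum of 6 tags would not appear here. At this depth, openings at these promoters were thus not detectable in either library.

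TNFRSF1A (ENSG00000067182, chr12:6437923-6451280, minus strand) encodes TNF receptor 1. The tallest peak within 3 kb of its TSS had 53 tags in DMSO, a height of 3.19 RPM (2.39 to 4.18), and 16 tags in MAK683, a height of 0.876 RPM (0.501 to 1.42), a log2 change of -1.87 (-2.67 to -1.06). These are not the same site. The DMSO peak was a single call from 6444551 to 6452060 with its summit in an intron 5308 bp downstream of the TSS, whereas the MAK683 peak, 6450399 to 6452051, peaked 398 bp upstream of the TSS. Over the whole region, the tallest MAK683 peak had 36 tags, 1.97 RPM, and the log2 change was -0.70 (-1.31 to -0.09). That interval includes the median over the genome's shared regions, -0.33. With the peak nearest the TSS in each library, or with summits within 3 kb of the TSS, the log2 change became 0.16. The DMSO peak was then one of 13 tags, 0.783 RPM, from 6452493 to 6453252. This too compares different sites, because the MAK683 peak was still the one of 16 tags with its summit 398 bp upstream. In the region of that DMSO peak, MAK683 also had 13 tags, a log2 change of -0.14 (-1.25 to 0.97). What the files show for TNFRSF1A is thus a lower height over the merged region and no stable direction at the promoter. The tallest peaks of that region need not be the same site in both libraries.

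TNFRSF1B (ENSG00000028137, chr1:12227048-12269285, plus strand) encodes TNF receptor 2, which has no death domain. It had no promoter peak in DMSO and one of 8 tags in MAK683, 0.438 RPM (0.189 to 0.863), with its summit in an intron 1649 bp downstream of the TSS. This is 1.21-fold the floor, and the interval includes the floor. A second peak of 8 tags lay 2419 bp upstream of the TSS, also in MAK683 alone. TNFRSF21 (ENSG00000146072, chr6:47199268-47277641, minus strand) encodes DR6, a death domain receptor known from neurons and immune cells. Its promoter had 30 tags in DMSO, 1.81 RPM (1.22 to 2.58), and 32 tags in MAK683, 1.75 RPM (1.20 to 2.47). The log2 change was -0.04 (-0.76 to 0.67), not detectably different at this depth, and its sign turned under 3 of 12 other settings.

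The adaptor and the caspase were both lower. FADD (ENSG00000168040, chr11:70049402-70053496, plus strand) had a promoter peak of 22 tags in DMSO, 1.33 RPM (0.831 to 2.01), and of 13 tags in MAK683, 0.712 RPM (0.379 to 1.22). The log2 change was -0.90 (-1.89 to 0.09) and its interval includes 0. The summit lay 93 bp upstream of the TSS in DMSO and 321 bp downstream in MAK683. The MAK683 peak from 70049599 to 70050025 was 427 bp long, within the DMSO peak from 70048783 to 70050235. In CASP8 (ENSG00000064012, chr2:202098166-202226559, plus strand) the tallest peak near the TSS had 34 tags in DMSO, 2.05 RPM (1.42 to 2.86), and 23 tags in MAK683, 1.26 RPM (0.798 to 1.89). The log2 change was -0.70 (-1.47 to 0.06), and its interval includes 0. Its summits lay 2490 and 2262 bp upstream of the canonical TSS, inside other transcripts of the gene. FADD and CASP8 were lower in MAK683 under 12 of 12 other settings each, which mostly reused the same tags. With a 1 kb window or the peak nearest the TSS, CASP8 had 10 tags in each library. Its change of -0.14 there came from the depth scaling alone. The FADD change exceeded that of 9.10% of all promoters and the CASP8 change that of 21.96%. Over these settings the CASP8 change ranged from -0.72 to -0.14 and the FADD change from -0.92 to -0.48, and relative to the median of all promoters CASP8 was at -0.28.

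**Figure D2:**
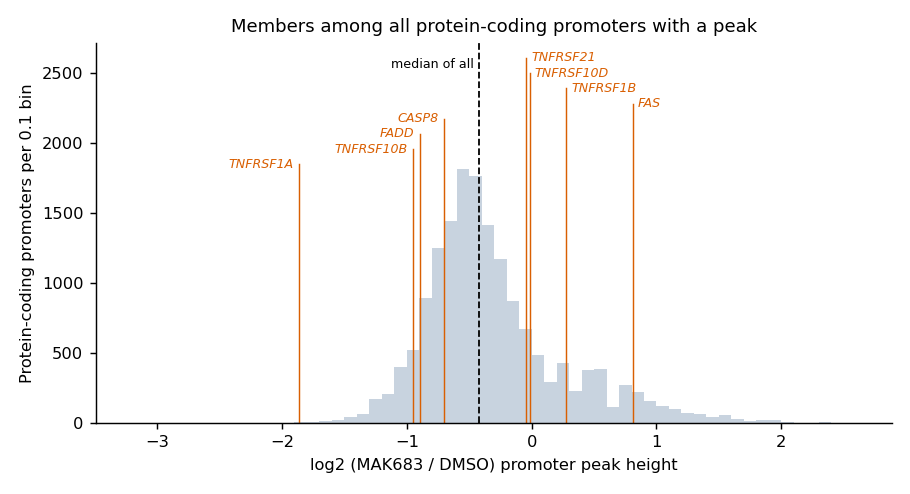
Histogram of the log2 change in promoter height (MAK683 over DMSO) over protein-coding promoters with a peak, with the 8 members that have one marked by orange lines at their own change and the median of all promoters (-0.42) by a dashed line. FAS stands to the right at 0.81 and TNFRSF10B, FADD and CASP8 to the left between -0.95 and -0.70; the TNFRSF1A line at -1.87 compares different peaks, and TNFRSF1B is set against the floor.

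Merging overlapping peaks gave 71 regions over the whole loci, 19 of them with peaks in both libraries, 20 with a peak in DMSO alone and 32 with a peak in MAK683 alone. Of the 19 shared regions, 16 were lower in MAK683, and 76.2% of 57983 shared regions in the genome were lower. The median log2 change was -0.24 over the members' shared regions and -0.33 over the genome's. No shared region differed by at least 2-fold, and no region in a single library reached 1 RPM. Across the genome, 49995 regions had a DMSO peak alone and 91532 a MAK683 peak alone. The members' peaks covered 35613 bp in DMSO and 39903 bp in MAK683. The members had 1.4 times as many peaks in MAK683, 56 against 40, beside 161184 against 114060 in the genome. Without TNFRSF21, left out after its values were seen, each library had 39 peaks, and other loci differed in both directions. At a −log10 q of at least 5 each had 25 peaks in all 10 loci, and at 10 or more each had 10.

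**Figure D3:**
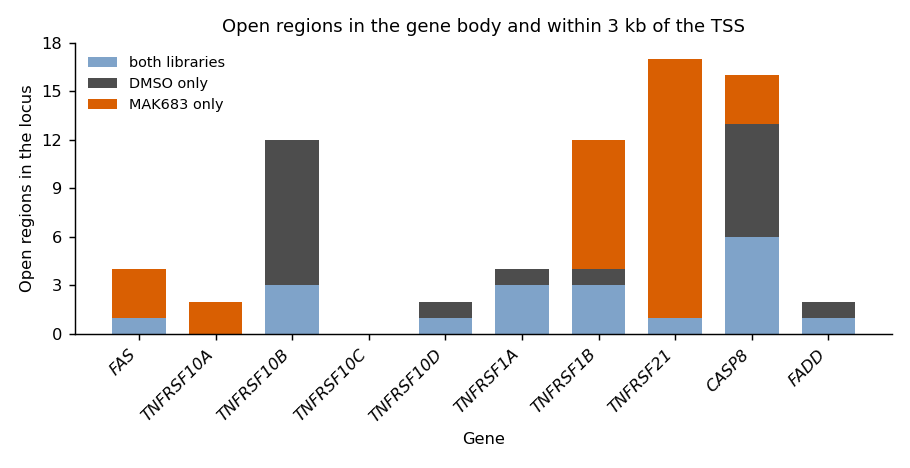
Number of open regions in each member's locus, stacked by whether a peak was listed in both libraries (blue), in DMSO only (grey) or in MAK683 only (orange). TNFRSF21 has 16 MAK683-only regions and TNFRSF10B has 9 DMSO-only regions; TNFRSF10C has none of any kind.

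Loci with at least 5 more MAK683-only than DMSO-only regions were 2 of 10, TNFRSF21 and TNFRSF1B, against 9.82% of protein-coding genes. The opposite excess was found at 1 member, TNFRSF10B, against 8.72% of protein-coding genes. The margin of 5 was set after the values were seen. In TNFRSF21 all 16 MAK683-only regions were intronic, and no region was in DMSO only. They held 6 to 15 tags. The tallest, chr6:47214933-47215457, had 15 tags, 0.821 RPM, and lay 62596 bp downstream of the TSS. The next, chr6:47258771-47259304, had 14 tags, 0.766 RPM, at 18740 bp. These heights were 2.27-fold and 2.12-fold the floor, and the other 14 regions were less than 2-fold above it. The 100 kb on either side of the locus held 18 MAK683-only regions and no DMSO-only or shared region, so the surroundings of TNFRSF21 also showed peaks in MAK683 alone. They were denser in the locus, 19.7 per 100 kb against 9 around it.

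Such regions were more frequent in genes of low GC content: 16.0% of genes in the lowest quartile of gene GC had at least 5 more MAK683-only than DMSO-only regions, then 12.5%, 8.46% and 2.32% in the next quartiles. TNFRSF21 had 41.4% GC and lay in quartile 2, FAS with 37.8% in quartile 1, and TNFRSF1B with 55.4% in quartile 4. The part of GC content in these regions was not tested.

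TNFRSF1B had 8 MAK683-only regions of 7 to 10 tags, 1 DMSO-only region of 9 tags and 3 shared ones. Its tallest region, chr1:12268208-12269472 over the 3′ UTR, had 14 tags in DMSO, 0.843 RPM, and 13 in MAK683, 0.712 RPM. All 8 heights were within 1.51-fold of the floor. The 100 kb on either side of TNFRSF1B held 7 MAK683-only and 4 DMSO-only regions. Per 100 kb, MAK683-only regions numbered 17.7 in the locus and 3.5 around it. FAS had 3 MAK683-only regions, all intronic, and none in DMSO only. They held 7 tags at chr10:90755433-90756051, 13 tags at chr10:90760772-90761064 and 10 tags at chr10:90761225-90761540, from 5369 to 10992 bp downstream of the TSS. The tallest of them was 0.712 RPM (0.379 to 1.22), 1.97-fold the floor. Within 100 kb of FAS there were 18 MAK683-only and no DMSO-only regions. Per 100 kb, MAK683-only regions numbered 10.7 in the FAS locus and 9 around it, so this locus was close to its surroundings. TNFRSF10A had 2 intronic regions of 7 tags in MAK683 alone, 4526 and 6629 bp downstream of the TSS.

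**Figure D4:**
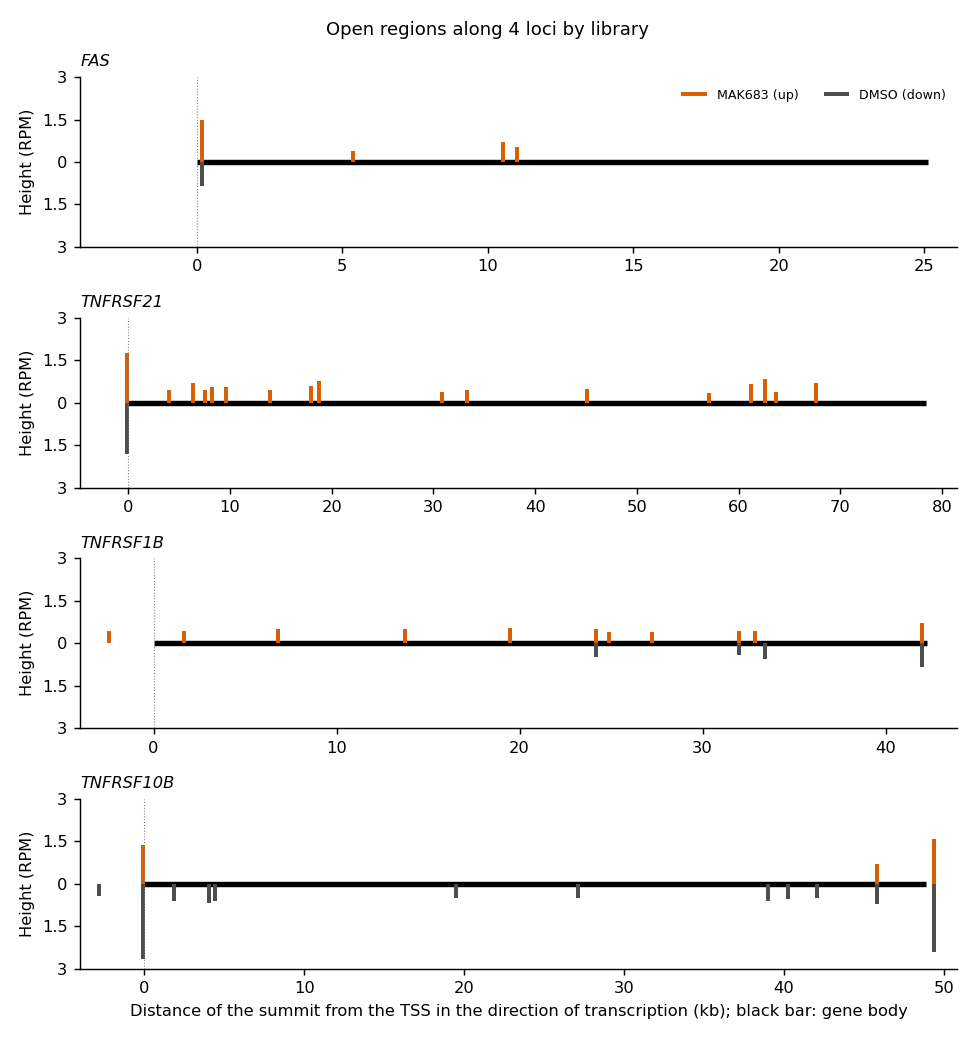
Height in RPM of each open region along FAS, TNFRSF21, TNFRSF1B and TNFRSF10B by the distance of its summit from the TSS in kb, with MAK683 drawn upward in orange, DMSO downward in grey, and the gene body as a black bar. TNFRSF21 has 16 intronic regions in MAK683 alone around an even promoter, and TNFRSF10B has 9 regions in DMSO alone with a lower promoter in MAK683.

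In TNFRSF10B the pattern was turned around. It had 9 DMSO-only regions of 7 to 11 tags, 8 of them intronic and 1 upstream of the TSS, and none in MAK683 only. The tallest, chr8:22922368-22923002, had 11 tags, 0.663 RPM, and lay 4045 bp downstream of the TSS. All 3 shared regions were lower in MAK683. One of them, chr8:22875644-22879343 with 40 and 29 tags, covered the 3′ end of the gene and had its summit outside it, within the annotated extent of RHOBTB2. The 100 kb on either side held 8 DMSO-only and 4 MAK683-only regions. Per 100 kb, DMSO-only regions numbered 17.3 in the locus and 4 around it. TNFRSF10D had 1 DMSO-only region of 8 tags 1848 bp upstream of its TSS, and TNFRSF10C had no region.

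CASP8 had the most shared regions, 6, and all 6 were lower in MAK683, with a median log2 change of -0.55. The tallest was the one upstream of the canonical TSS described above. The region at the first annotated start of the gene, chr2:202096529-202099368, had 27 tags in DMSO, 1.63 RPM, and 23 in MAK683, 1.26 RPM. The region over the canonical TSS, chr2:202124966-202125724, had 10 tags in each library, 0.602 and 0.547 RPM. A further 7 regions had a DMSO peak alone and 3 a MAK683 peak alone, and 5 of these 10 lay in the far part of the locus that FLACC1 overlaps. FADD had 1 DMSO-only region of 10 tags, in its intron 2080 bp downstream of the TSS. TNFRSF1A had 3 shared regions, all lower, and 1 DMSO-only region of 9 tags in its 3′ UTR. Its shared regions at the 3′ end and upstream, with 11 and 12 and 13 and 13 tags, differed by log2 changes of -0.01 and -0.14.

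A further 18 genes of the extrinsic apoptosis pathway were examined, of which 15 had a promoter peak, 11 in DMSO and 14 in MAK683. Their median log2 change was -0.17, beside -0.42 over all promoters. The promoter was higher in MAK683 at 4 of the 15 genes, beside 21.5% of all promoters, and lower at 11. It was at least 2-fold higher at 2, beside 3.37%, and at least 2-fold lower at none, beside 5.75%. All 4 of the higher genes had a peak in MAK683 alone, as did 9.77% of all promoters, and their folds are relative to the floor.

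Both death ligands had a peak in MAK683 alone. TNFSF10 (ENSG00000121858, chr3:172223298-172241265), the gene of TRAIL, had none in DMSO and 15 tags in MAK683, 0.821 RPM (0.460 to 1.35), 2.27-fold the floor. The summit was 97 bp upstream of the TSS. FASLG (ENSG00000117560, chr1:172628243-172636016), the gene of FAS ligand, had none in DMSO and 9 tags in MAK683, 0.493 RPM (0.225 to 0.935), 44 bp upstream. TNF and LTA had no promoter peak in either library. Of the other receptors, TNFRSF11B (ENSG00000164761, chr8:119935796-119964124), which encodes osteoprotegerin, a soluble decoy for TRAIL and RANKL, had none in DMSO and 16 tags in MAK683, 0.876 RPM (0.501 to 1.42), 2.42-fold the floor, with its summit 47 bp downstream of the TSS. TNFRSF25, the gene of DR3, had 9 tags in DMSO, 0.542 RPM (0.248 to 1.03), and no peak in MAK683. CASP10, an initiator caspase next to CASP8 on chromosome 2, had none in DMSO and 8 tags in MAK683, 0.438 RPM (0.189 to 0.863), 86 bp upstream.

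The 10 pathway genes with peaks in both libraries were lower in MAK683 in RPM, each with an interval that includes 0. For BID, which links CASP8 to mitochondria, the peaks of the libraries did not overlap, with summits 595 bp downstream and 1120 bp upstream of the TSS, so its change compares different sites. CFLAR, which encodes the CASP8 inhibitor c-FLIP, had 44 and 32 tags and a log2 change of -0.60 (-1.25 to 0.06). The others, among them the adaptor gene TRADD, the kinase gene RIPK1 and the inhibitor genes BIRC2 and XIAP, had log2 changes between -0.46 and -0.06, and BIRC3 had no promoter peak. Of the 7 members and 10 pathway genes with promoter peaks in both libraries, FAS alone was higher in MAK683 in RPM. Among all promoters with peaks in both libraries 13.5% were higher, so the low count of higher genes did not set these genes apart. Other scales added genes with small changes: without depth scaling TNFRSF10D and TNFRSF21, and in the pathway NGFR with 18 and 19 tags and XIAP with 24 and 25, were higher too, and relative to the median of all promoters more of the pathway genes lay above 0. TNFRSF1A was higher when the peak nearest the TSS was used, which compares different peaks.

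**Figure D5:**
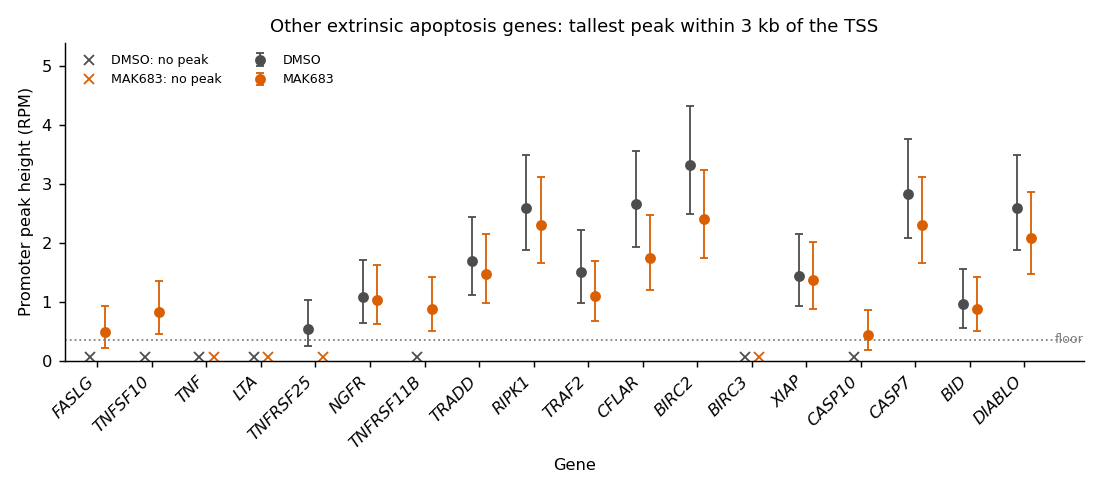
Height in RPM of the tallest peak within 3 kb of the TSS for 18 other extrinsic apoptosis genes in DMSO (grey) and MAK683 (orange), with 95% exact intervals that cover counting error; crosses mark no peak. FASLG, TNFSF10, TNFRSF11B and CASP10 have a peak in MAK683 alone, between 0.438 and 0.876 RPM, and the 10 genes with peaks in both libraries are lower in MAK683 in RPM.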

How the data were processed

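ATAC-seq libraries of G401 cells, 1 per group, were paired 150 bp reads. According to the methods, the authors used Trim-galore for trimming and Bowtie2 for alignment to hg19. MACS 2.1.1.20160309 called narrow peaks separately in each library, per the file headers (the processing notes name MACS2 2.1.0 and 2.2.7.1), with no control, a shift of -100 bp, an extension of 200 bp, local background off, a q-value cutoff of 0.05, single-end mode and 1 tag per position. Reads of a pair were therefore not joined into fragments and may both have been counted as tags, and regional coverage was not corrected. The pileup deposited by the authors is a signal in whole tags without depth scaling. Fold enrichment, a ratio to the background of the library, was deposited as well and served as an alternative. The authors also deposited a −log10 q-value, used as a filter, and a −log10 p-value, not used here, and both depend on depth.

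Heights were scaled to tags after filtering. Genes and TSSs came from GENCODE 44 lifted to GRCh37, with the canonical transcript and, for FAS, which carries no such mark there, the longest basic transcript. The promoter height was the tallest peak within 3 kb. Peaks overlapping by at least 1 bp were merged. The members and gene lists were chosen with earlier results of these data known. All members were named, with the tallest region of each, regions at least 2-fold different, single-library peaks of at least 1 RPM, and pathway genes past 2-fold or with a peak in a single library. One gene of the pathway list is not reported here. Alternatives were other windows, TSSs, q filters, scalings and overlap rules. Restricting summits to 3 kb of the TSS and leaving out TNFRSF21 were chosen after seeing the data. The code was tested on simulated data. Python 3.11.15, numpy 2.4.6, scipy 1.17.1, pandas 2.3.3 and matplotlib 3.10.9 were used.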

Additional observations from a re-analysis of the deposited data

How the results depend on the processing

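The number of members higher in MAK683, 2, became 1 with a 1 kb window, with a −log10 q of at least 5 or of at least 10, and with peaks required in both libraries, where TNFRSF1B dropped out. It became 4 without depth scaling, with the deposited fold enrichment and relative to the median of all promoters, where TNFRSF10D and TNFRSF21 joined, and 3 with the peak nearest the TSS or with summits within 3 kb, where TNFRSF1A joined. The TNFRSF1A promoter change of -1.87 turned to 0.16 with the peak nearest the TSS and with summits within 3 kb, which was chosen after seeing the data. Both values compare different peaks. The 40 DMSO and 56 MAK683 peaks became 25 and 25 at a −log10 q of at least 5 and 10 and 10 at one of at least 10, and the MAK683 number became 32 at a minimum of 0.5 RPM. The members' median promoter change of -0.37 ranged from -0.70 with peaks in both libraries to 0.05 relative to the median of all promoters, where its sign turned. The median over shared regions, -0.24, ranged from -0.65 to -0.11. Besides the 12 alternatives that moved a count further and the 2 that reversed TNFRSF1A, 37 for lists and counts and 90 for single members remained. The 37 include the ranges of medians above and the counts of 3. These 37 and 90 alternatives moved no count by more than 1.5 times. Among single members they turned the signs of TNFRSF10D and TNFRSF21 alone. Without replicates, nothing here measures the variation between cultures. No paired analysis was possible because each group had 1 library. Most regions in a single library held 6 to 11 tags, close to the 6 tags of the lowest listed peak, so their absence from the other library is not an absence of opening.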
